A study of Mus musculus with 20 samples.

Results

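The interaction of hemin and ischemia in mouse kidney asked whether the change made by ischemia differed between kidneys of mice given hemin and kidneys of untreated mice. It was computed for each gene as IRI+Hemin minus IRI, less Hemin minus Control, on the log2 scale, so that a positive value marks a gene with a higher ischemia effect after hemin and a negative value marks a gene with a lower one. The contrast used the 16 single-color Agilent arrays of 4 groups, out of 20 arrays in the series, and tested 19060 of the 27827 gene names on the array. All mice were male C57BL/6 animals of 8 to 12 weeks, with 4 samples in a group and 1 array for each. Control mice had neither surgery nor drug and were not sham-operated. IRI mice had both renal pedicles clamped for 45 min and were killed 6 h after reperfusion. IRI+Hemin mice received 25 mg/kg hemin intraperitoneally 24 h before the same clamping and the same reperfusion. Hemin mice received the 25 mg/kg dose with no surgery, and the time from their dose to sacrifice is not given in the sources used here. The fifth group, preconditioned mice with IRI, entered the fit and not the contrast.

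Hemin is the oxidized, chloride-bound form of heme. It induces heme oxygenase 1, the enzyme that opens the heme ring to biliverdin, iron and carbon monoxide, and it also represses the first enzyme of heme synthesis in liver. Ischemia followed by reperfusion injures above all the proximal tubule, whose cells live on fatty acid oxidation, and sets off immediate early genes, chemokines and stress pathways within hours. An interaction differs from either single comparison. Where hemin and ischemia act on a gene by adding up on the log scale the interaction is 0, and it departs from 0 only where the joint change differs from the sum.

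A level below is the log2 of a gene's processed signal over the 75th percentile of its array, so that 0 is the level of that percentile. The 75th percentile itself lay between 146.7 and 357.9 signal units on the 16 arrays, and 57.4% to 67.4% of gene names were well above background on an array. The 4 arrays of each group shared 1 slide, so that slide and group cannot be told apart. The Control and IRI slides were scanned on 1 day, the Hemin slide on another and the IRI+Hemin slide on another still, so the interaction crosses scan days and no fit with the day as a term gives it. Of 10 spiked-in control transcripts, 6 were well above background on all 16 arrays, and their interaction lay between -1.79 and -0.65 with a median of -1.21, while the median of all genes tested was 0.01. The spiked-in transcripts were lowest on the IRI+Hemin arrays, with a median difference from IRI of -2.18, and their part in the results was not tested. Proximal tubule markers were well above background on all 16 arrays for 21 of 21 genes listed and found. Summed leukocyte marker levels, on a linear scale, ran from 7.42 to 9.77 in Control, from 14.7 to 21.3 in IRI, from 7.52 to 10 in Hemin and from 14.2 to 27.3 in IRI+Hemin. The summed level of 5 ribosomal and nuclear RNA genes, 4 of them well above background on all 16 arrays, ran from 75.8 to 297 in Control, from 51.8 to 121 in IRI, from 260 to 280 in Hemin and from 236 to 322 in IRI+Hemin. Both hemin groups lay above IRI on every array, and Control spanned from the range of IRI to that of the hemin groups. Summed adipose markers ran from 0.336 to 83.8 with overlap of all 4 groups. The part of either sum in the results was not tested. In kidney RNA, fewer cells of a type and less RNA per cell cannot be told apart.

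Promoters of 2 genes with an interaction are shown because each carries motifs of a factor tied to its gene group. Ifit1 stands for the interferon response, whose genes carry interferon-stimulated response elements, and Alas1 for heme synthesis, whose rate-setting gene is known to be driven by nuclear respiratory factor 1 together with the coactivator that Ppargc1a encodes. Both are RefSeq windows of 300 bases on GRCm38.p6, 5′ to 3′ on the strand of the gene, and capitals mark the motif on either strand. Where a gene had several windows, the window whose first motif lay nearest its 5′ end was taken. The Ifit1 window is chr19:34640639-34640938 on the plus strand and holds GAAANNGAAA in 2 places, at positions 147 and 166 from its 5′ end. The Alas1 window is chr9:106247681-106247980 on the minus strand and holds GCGCANGCGC in 2 places, at positions 27 and 56.
Ifit1: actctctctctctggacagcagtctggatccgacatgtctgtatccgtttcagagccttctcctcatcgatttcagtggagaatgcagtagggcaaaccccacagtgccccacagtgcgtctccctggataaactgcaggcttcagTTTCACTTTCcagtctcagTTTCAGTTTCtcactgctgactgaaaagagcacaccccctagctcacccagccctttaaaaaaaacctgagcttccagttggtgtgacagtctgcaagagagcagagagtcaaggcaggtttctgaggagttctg
Alas1: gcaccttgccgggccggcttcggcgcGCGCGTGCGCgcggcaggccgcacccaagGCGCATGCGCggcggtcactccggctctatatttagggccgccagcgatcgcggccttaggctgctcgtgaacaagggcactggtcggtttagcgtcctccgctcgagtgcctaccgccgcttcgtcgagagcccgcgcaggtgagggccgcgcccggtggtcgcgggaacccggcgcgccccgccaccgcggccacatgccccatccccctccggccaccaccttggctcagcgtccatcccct
Of 32851 RefSeq windows of this length, 3.44% held GAAANNGAAA and 4.6% held GCGCANGCGC. Among the 20 interferon response genes with a window, 10 held GAAANNGAAA in at least 1 of their windows. That count is by gene and the 3.44% by window, so the shares are not like for like. A match is a description of the letters and not a bound site.

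Hmox1, the gene of heme oxygenase 1, was taken first as the gene that hemin is known for. Its Control levels were 0.96, 2.14, 1.18 and 1.18, its IRI levels 5.69, 5.63, 6.14 and 6.67, its Hemin levels 1.69, 1.91, 2.20 and 1.92 and its IRI+Hemin levels 5.38, 6.12, 6.61 and 5.09. The 8 ischemic arrays lay above all 8 others, and the IRI and IRI+Hemin arrays overlapped. The ischemia effect was 4.67 without hemin and 3.87 with hemin, both called. The interaction of -0.80 (SE 0.66) was not called (adjusted p = 0.519 by limma with Benjamini-Hochberg adjustment, as for all adjusted p-values here). The Hemin mice had 0.56 over Control, which was not called either (adjusted p = 0.365).

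Across the genes tested, 1112 had a higher interaction (5.83%) and 373 had a lower one (1.96%) at an adjusted p below 0.05. At an unadjusted p below 0.05 the counts were 2633 and 1624. An interaction of at least 2-fold was reached by 815 of the 1112 and by 161 of the 373. The counts moved with the processing. Normexp, another background correction, was run with 50 signal units added to every value and left 117 higher and 29 lower. The 75th percentile lay between 146.7 and 357.9 units, so the added units are a larger share of the signal in dim genes. Every result given for normexp includes these units, and their part in it was not tested. Leaving out the scaling between arrays left 321 and 84. The deposited log2 matrix gave 849 and 106, and array weights gave 1875 and 1881. With any 1 of the 16 arrays removed, the higher count lay between 760 and 1098 and the lower count between 227 and 575. The lower count was 575 without IRI replicate 4, 236 without Hemin replicate 1 and 227 without Hemin replicate 3. In every such fit, 707 of the higher and 187 of the lower genes were called in the same direction. On a linear scale 1107 of the 1112 and 373 of the 373 kept the sign of the interaction.

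**Figure D1:**
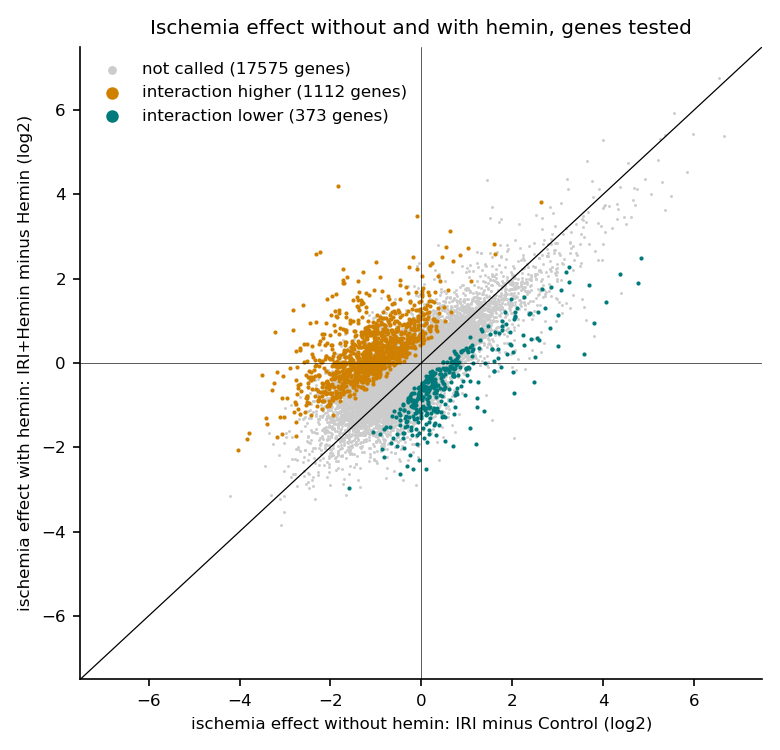
Each point is 1 of 19060 genes, with the ischemia effect without hemin (IRI minus Control, log2) on the horizontal axis and with hemin (IRI+Hemin minus Hemin, log2) on the vertical axis. The line marks equal effects. Most genes lie along the line (Pearson r = 0.71 over genes), the 1112 genes with a higher interaction lie above it and the 373 with a lower one below it.

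The 2 ischemia effects rest on separate arrays. IRI vs Control called 3062 genes higher (16.1%) and 6328 lower (33.2%), and IRI+Hemin vs Hemin called 3053 higher (16%) and 5290 lower (27.8%). Over all genes tested the effects correlated with a Pearson r of 0.71 and a Spearman rho of 0.66, a description over genes, which are not independent replicates. Of the genes called in IRI vs Control, 58.4% were called in the same direction with hemin, and of those called in IRI+Hemin vs Hemin, 65.7% were called in the same direction without it. The same genes were called in opposite directions in 200 cases.

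The interaction is the difference of the 2 ischemia effects, so their calls in the genes chosen by it are a description and not a further result. Of the 1112, 604 were lower in IRI vs Control and not called in IRI+Hemin vs Hemin, 176 were lower without hemin and higher with it, and 133 were lower in both. A further 179 were called only with hemin, as higher, 17 were higher in both and 3 were called in neither. Of the 373 genes with a lower interaction, 182 were called only with hemin, as lower, 94 were higher without hemin and not called with it, and 45 were higher in both. Another 26 were lower in both, 24 were higher without hemin and lower with it, and 2 were called in neither.

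Seen along the other axis, Hemin vs Control called 3444 genes higher (18.1%) and 3288 lower (17.3%), and IRI+Hemin vs IRI called 4749 higher (24.9%) and 3400 lower (17.8%). The interaction is equally the difference of these hemin effects, so their calls in the genes chosen by it are again a description. Of the genes with a higher interaction, 516 were higher in IRI+Hemin vs IRI and not called in Hemin vs Control, and 342 were lower in Hemin vs Control and not called in IRI+Hemin vs IRI. Another 193 were lower with hemin in uninjured kidneys and higher with hemin in ischemic ones. Of the genes with a lower interaction, 229 were called only in ischemic kidneys, as lower after hemin, and 79 only in uninjured ones, as higher. Another 36 were higher with hemin in uninjured kidneys and lower with hemin in ischemic ones.

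The share of genes called higher was largest among dim ones. At or below a mean level of -4 it was 7.37% higher and 1.64% lower, between -4 and -2 it was 9.99% and 1.87%, and above 2 it was 1.67% and 1.47%. The median level was -2.58 for genes with a higher interaction, -0.85 for those with a lower one and -1.11 for all genes tested. Well above background on all 16 arrays were 729 of the 1112, 300 of the 373 and 14609 of the 19060. A curated RefSeq mRNA accession stood beside 52.2% of the higher genes, 81% of the lower genes and 75% of all genes tested. Control replicate 2 was the brightest Control array in 620 of the 1112 (55.8%), in 117 of the 373 (31.4%) and in 43.1% of all genes tested.

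**Figure D2:**
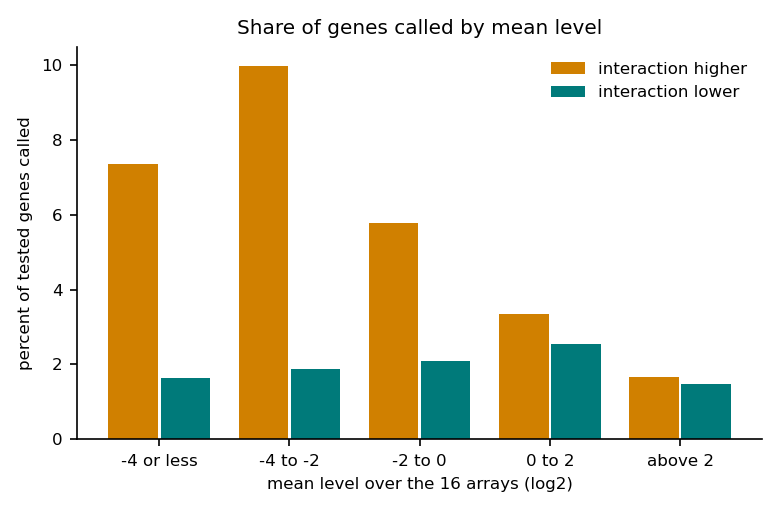
Percent of tested genes called for the interaction, by the gene's mean level over the 16 arrays (log2, horizontal axis), with higher interactions in orange and lower ones in teal. The share called higher peaks at 9.99% between -4 and -2 and is 1.67% above 2.

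Of 72 genes followed through the alternatives, 9 were called in the same direction under all 29 alternative fits that they entered, normexp and unscaled values included. These were Alas1, Ppargc1a, Fgf18, Cyp2d34 and Cyp17a1 with a higher interaction and Fosl2, Elf3, Vwa1 and Myo5a with a lower one. The naming rule had asked Fgf18, Cyp2d34, Fosl2, Elf3, Vwa1 and Myo5a to be called in the 16 fits that left out an array. Those fits could not fail for these genes and add no support for them. A filter of at most 1 missing value in each group gave the same calls as the main fit. Under normexp 16 of the 72 met the threshold, and the calls ended by another background correction, scaling, probe summary, filter, weighting or set of arrays, or in the deposited matrix, are given with each gene, with the interaction found there in parentheses. A 2-fold minimum ended the calls of Vnn1, Ehhadh, Bag3, Taldo1, Mdm2, Mcm3, Cdt1, Odc1, Slc13a3 and Esam.

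Alas1 encodes 5-aminolevulinate synthase 1, the rate-limiting enzyme of heme synthesis outside red cells. Its levels were 4.02, 3.81, 4.22 and 3.4 in Control, 3.03, 3.37, 2.70 and 2.71 in IRI, 3.72, 3.68, 3.67 and 3.46 in Hemin and 5.17, 4.87, 4.56 and 4.31 in IRI+Hemin. Every IRI+Hemin array lay above every other array, and every IRI array lay below every array of the other 3 groups. Ischemia lowered Alas1 by 0.91 in untreated mice (adjusted p = 0.00236) and raised it by 1.09 after hemin (adjusted p = 0.000708), an interaction of 2.00 (SE 0.31, adjusted p = 0.000733). Hemin alone gave -0.23, which was not called (adjusted p = 0.437). Its 2 probes, within chr9:106136467-106137862 on the mm9 build that the array's annotation uses, gave interactions of 1.94 and 2.23.

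Among 22 genes of heme and iron handling, Alas1 and Cp were called, both higher (9.09%, beside 5.83% of all genes), and 20 were not called, with a list median of 0.02 beside 0.01 over all genes tested. Cp encodes ceruloplasmin, the copper oxidase that loads iron onto transferrin. Its group means were -0.03 ± 0.26 (SD, n = 4, as for all values given with ±) in Control, 0.28 ± 0.21 in IRI, 0.31 ± 0.29 in Hemin and 1.99 ± 0.15 in IRI+Hemin. The 4 IRI+Hemin arrays, from 1.83 to 2.20, stood above all 12 others, whose highest value was 0.56, and the interaction was 1.37 (SE 0.36, adjusted p = 0.0237). Cp missed the threshold in 1 of the 16 fits that left out an array, without Hemin replicate 2, where its interaction was 1.26. Cp lost its call without scaling (1.17).

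Ppargc1a encodes PGC-1alpha, the coactivator that drives mitochondrial biogenesis and fatty acid oxidation. Its levels were 1.29, 1.53, 1.05 and 1.13 in Control, 0.42, 0.27, 0.43 and 0.43 in IRI, 1.74, 1.56, 1.39 and 1.12 in Hemin and 1.66, 2.12, 2.14 and 2.47 in IRI+Hemin. IRI was the lowest group with no overlap, and 3 of 4 IRI+Hemin arrays were above all Control and Hemin arrays. Ischemia lowered it by 0.86 without hemin and raised it by 0.64 with hemin, an interaction of 1.51 (SE 0.27, adjusted p = 0.00234). Its 2 probes differed in size, at 2.00 and 0.63.

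The list of fatty acid oxidation genes and PPAR targets had 23 members tested, of which 3 were called higher (13%, beside 5.83% of all genes) and none lower, and 22 of 23 interactions were positive. The list median was 0.45, beside 0.01 over all genes tested, and it stayed between 0.25 and 0.84 under 13 alternatives other than leaving out an array. The ischemia effect had a list median of 0.10 without hemin and 0.64 with it, and 14 members (60.9%, beside 16% of all genes) were called higher with hemin and 4 (17.4%, near the 16.1% of all genes) without. Beside Ppargc1a, the members called were Ehhadh, the bifunctional enzyme of peroxisomal beta-oxidation, and Vnn1, a pantetheinase and PPARalpha target. Ehhadh had 5.66 ± 0.30 in IRI and 6.37 ± 0.06 in IRI+Hemin, an interaction of 0.86 (SE 0.25, adjusted p = 0.0397). Vnn1 had 2.55 ± 0.12 in IRI and 3.15 ± 0.14 in IRI+Hemin, an interaction of 0.85 (SE 0.21, adjusted p = 0.02). Ehhadh lost its call in 11 of the 16 fits that left out an array and Vnn1 in none. The mitochondrial dehydrogenases Acadm and Acadl had interactions of 0.01 and 0.01 and were not called. These 2 genes were chosen after their values were seen. Ehhadh lost its call with normexp (0.97), without scaling (0.66), with quantile normalization (0.95) and with no filter on dim genes (0.86). Vnn1 lost its call with normexp (0.74) and without scaling (0.65).

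Fgf18 encodes a fibroblast growth factor. Its levels were -2.55, -1.83, -2.34 and -2.33 in Control, -2.20, -1.15, -1.47 and -1.75 in IRI, -1.87, -1.99, -1.75 and -3.16 in Hemin and 0.96, 1.44, 0.84 and 0.49 in IRI+Hemin. The IRI+Hemin arrays alone lay above 0. The ischemia effect was 0.62 without hemin (adjusted p = 0.107) and 3.13 with it (adjusted p = 9.94e-07), an interaction of 2.50 (SE 0.44, adjusted p = 0.00212).

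Cytochrome P450 genes were called higher in 8 of 64 tested (12.5%, beside 5.83% of all genes) and lower in 2 (3.12%, beside 1.96%), with a median of 0.29 that was 0.01 under normexp. This median was 0.327 over the 45 well above background on all 16 arrays and 0.205 over 81 with no filter on dim genes. Family members dim in other groups could pass the filter through the group in which they were high, so the counts describe the genes that passed. The number called higher was 5 without Control replicate 1, IRI+Hemin replicate 4, Hemin replicate 1 or Hemin replicate 3. Cyp2d34, of a drug-metabolizing subfamily, had 0.50, 0.66, 0.57 and 0.09 in Control, -0.42, 0.11, -0.20 and -0.61 in IRI, -1.32, -1.08, -1.51 and -1.09 in Hemin and 0.03, 0.58, 0.24 and 0.47 in IRI+Hemin. The Hemin arrays lay below all others, and Control and IRI+Hemin overlapped. Hemin lowered it by 1.71 in uninjured kidneys and raised it by 0.61 in ischemic ones, an interaction of 2.32 (SE 0.24, adjusted p = 3.43e-05). Members of this family share sequence, and a probe may read more than 1 of them.

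Cyp17a1, the 17alpha-hydroxylase of steroid synthesis, had 1.49, 0.74, 1.55 and 1.03 in Control, -0.24, 0.01, 0.16 and -0.25 in IRI, -0.42, -0.16, -0.48 and -0.30 in Hemin and 0.52, 0.58, 0.04 and 0.29 in IRI+Hemin. Control was the highest group with no overlap, and Hemin the lowest group in mean. The interaction was 1.98 (SE 0.28, adjusted p = 0.000333). Of 7 adrenal marker genes on the array, 3 were well above background on all 16 arrays, and Cyp11a1 and Cyp11b2 on none. Of 5 adrenal markers tested, none was called for the interaction. At an unadjusted p below 0.05 in limma, 2 were higher (40%, beside 13.8% of all genes) and 0 lower (beside 8.52%). Summed adrenal cortex markers, on a linear scale, ran from 1.02 to 1.2 in Control and from 0.468 to 0.854 over the other 3 groups, and their part in the result was not tested. Cyp2j9, an arachidonic acid epoxygenase family member, went the other way with -1.02 (SE 0.15, adjusted p = 0.000544), from 0.98 ± 0.15 in Control and 1.69 ± 0.09 in IRI to 1.77 ± 0.12 in Hemin and 1.47 ± 0.13 in IRI+Hemin. Cyp2j9 lost its call with normexp (-0.76) and without scaling (-1.22).

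**Figure D3:**
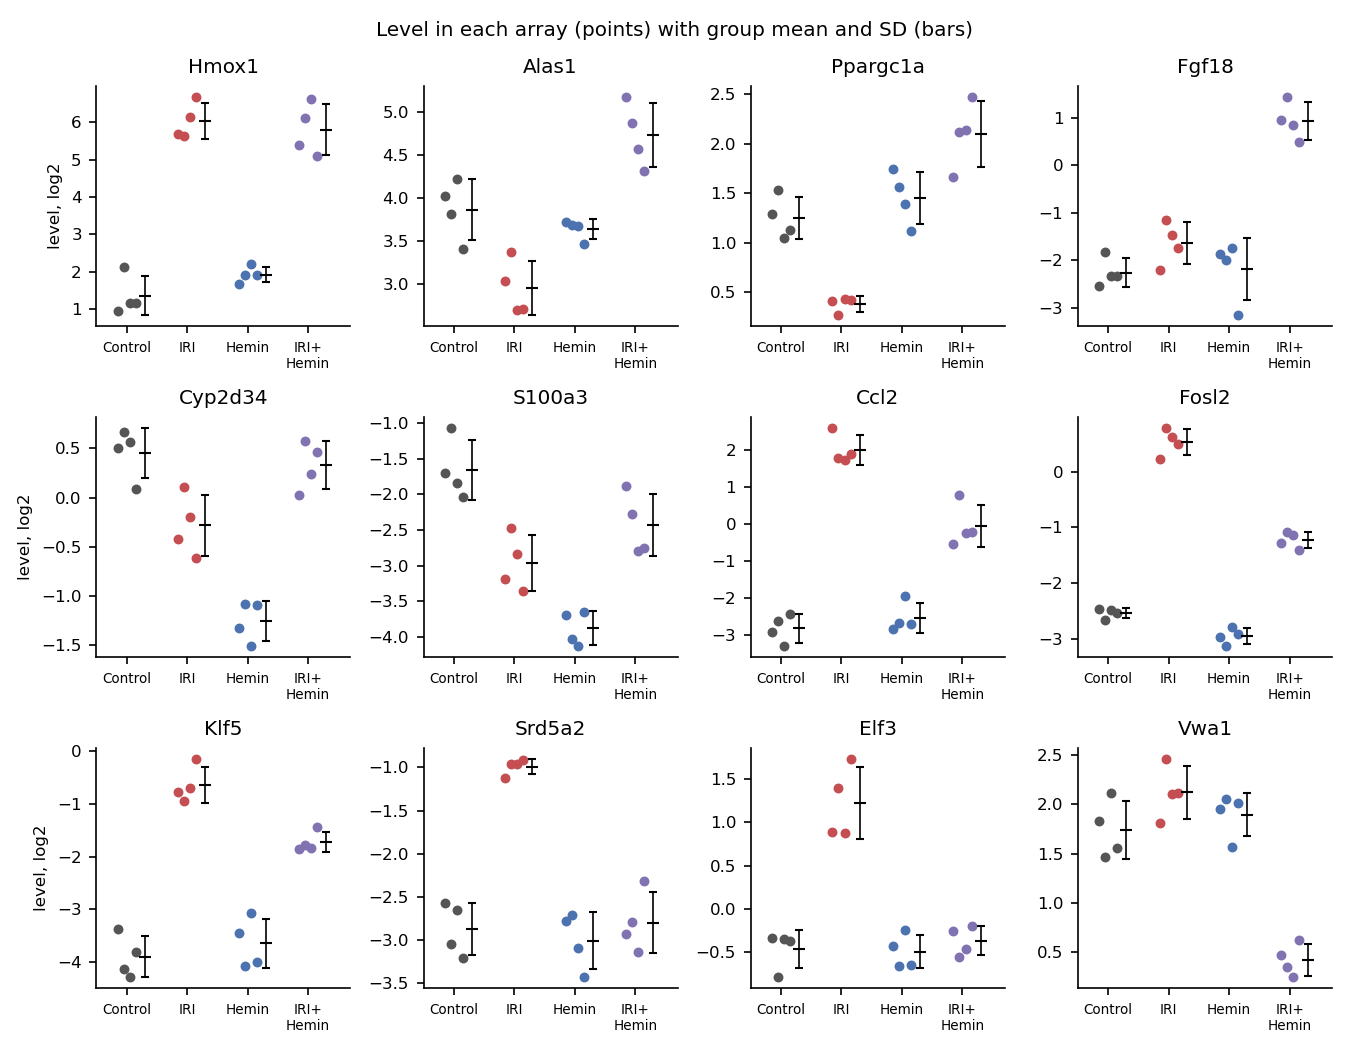
Level of 12 genes (log2 over the array's 75th percentile) in each of the 4 arrays of Control, IRI, Hemin and IRI+Hemin, with the group mean and SD as a bar to the right of the points. IRI is the lowest group for Alas1 and Ppargc1a and IRI+Hemin the highest, IRI+Hemin alone is raised for Fgf18 and lowered for Vwa1, and IRI alone is raised for Elf3 and Srd5a2.

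Among the genes with a RefSeq mRNA accession that were well above background on all 16 arrays and called in every fit that left out 1 array, the 12 with the highest interaction were F7, Ddx25, Rtbdn, S100a3, A430110N23Rik, Slc16a14, Cdk5r2, Fgf18, Olfr1359, Sts, Cyp2d34 and Slco4c1. Several of them were dim genes on which Control replicate 2 was the brightest Control array, which held for 9 of the 12. F7, coagulation factor VII, had -1.79, -0.82, -2 and -1.94 in Control, -3.52, -3.17, -2.85 and -4.48 in IRI, -3.45, -3.57, -3.71 and -3.33 in Hemin and -2.20, -2.78, -2.59 and -1.98 in IRI+Hemin. Control replicate 2 stood 0.97 above the next Control array, and the interaction was 3.00 (SE 0.42, adjusted p = 0.000344). F7 lost its call with normexp (0.86).

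S100a3, a calcium-binding protein of hair, had -1.70, -1.07, -1.84 and -2.04 in Control, -3.19, -2.47, -2.83 and -3.36 in IRI, -3.69, -4.02, -4.13 and -3.65 in Hemin and -1.88, -2.27, -2.80 and -2.75 in IRI+Hemin. All Hemin arrays lay below all other arrays and Control was highest in mean. The interaction was 2.75 (SE 0.33, adjusted p = 0.000134). Rtbdn, a riboflavin-binding protein of the retina, had 2.77 (SE 0.58, adjusted p = 0.00746), and A430110N23Rik and Olfr1359, an olfactory receptor, had 2.71 (SE 0.54) and 2.42 (SE 0.42). In F7, Rtbdn, S100a3, A430110N23Rik and Olfr1359 ischemia was called lower without hemin and higher with it. S100a3, Rtbdn, A430110N23Rik and Olfr1359 lost their calls with normexp (0.89, 1.01, 1.08 and 0.93 in that order).

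Ddx25, an RNA helicase of germ cells, rose from -2.59 ± 0.31 in Hemin to -0.85 ± 0.99 in IRI+Hemin, with 1 of 4 IRI+Hemin arrays at -2.33 and the others between -0.54 and -0.22. Its interaction was 2.78 (SE 0.69, adjusted p = 0.0182), with 1 of its 2 probes well above background, and was 1.37 and still called with probes averaged as log2 values. Slc16a14, a monocarboxylate transporter family member, had group means of -1.72 ± 0.69 in Control, -2.57 ± 0.18 in IRI, -3.63 ± 0.50 in Hemin and -1.91 ± 0.71 in IRI+Hemin, an interaction of 2.57 (SE 0.60). Slco4c1, the organic anion transporter of the proximal tubule's basolateral side, had -1.67 ± 0.30 in Control, -3.14 ± 0.56 in IRI, -1.66 ± 0.63 in Hemin and -0.91 ± 0.49 in IRI+Hemin, an interaction of 2.23 (SE 0.44, adjusted p = 0.00458). Ischemia lowered Slco4c1 in untreated mice (adjusted p = 0.00078) and was not called after hemin (adjusted p = 0.0582). Sts, steroid sulfatase, had an interaction of 2.34 (SE 0.56) with 0.38 ± 0.63 in Hemin and 2.24 ± 0.80 in IRI+Hemin. Cdk5r2, an activator of the neuronal kinase Cdk5, had 2.55 (SE 0.63), with -2.59 ± 0.36 in IRI as the lowest group. Ddx25, Slc16a14 and Sts lost their calls with normexp (1.16, 1.05 and 2.04 in that order) and without scaling (2.58, 2.37 and 2.13). Slco4c1 and Cdk5r2 lost their calls with normexp (0.90 and 1.39 in that order).

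Under the same conditions the 12 genes with the lowest interaction were Olfr282, Vwa1, Lingo4, Podn, Olfr195, Srd5a2, Myo5a, Mep1b, Best1, Elf3, Phlda1 and C1qtnf3. In Olfr282, Vwa1, Podn, Olfr195, Myo5a, Mep1b and C1qtnf3 the IRI+Hemin group stood farthest from the other 3, and in Lingo4, Srd5a2, Elf3 and Phlda1 it was the IRI group.

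Vwa1 encodes an extracellular matrix protein that binds perlecan. Its levels were 1.83, 1.46, 2.11 and 1.56 in Control, 1.81, 2.46, 2.10 and 2.11 in IRI, 1.95, 2.05, 1.57 and 2.01 in Hemin and 0.47, 0.34, 0.24 and 0.62 in IRI+Hemin. All 4 IRI+Hemin arrays lay below the other 12, which overlapped. Ischemia was not called without hemin (adjusted p = 0.0822) and lowered Vwa1 by 1.47 with it (adjusted p = 7.08e-06), an interaction of -1.86 (SE 0.25, adjusted p = 0.000281). Podn, a small leucine-rich matrix proteoglycan, had -1.91 ± 0.57 in Control, -1.74 ± 0.16 in IRI, -1.94 ± 0.28 in Hemin and -3.52 ± 0.44 in IRI+Hemin, an interaction of -1.76 (SE 0.34, adjusted p = 0.00429). Podn lost its call with normexp (-0.93).

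Myo5a, the vesicle-carrying myosin Va, had 1.80, 0.74, 1.47 and 1.10 in Control, 1.22, 1.57, 1.04 and 0.90 in IRI, 2.11, 1.51, 1.41 and 1.47 in Hemin and -0.27, -0.33, -0.25 and 0.51 in IRI+Hemin. IRI+Hemin lay below all others, with replicate 4 above the other 3 of its group, and the interaction was -1.61 (SE 0.32, adjusted p = 0.00535). Mep1b, the beta subunit of the brush border protease meprin, had 2.36 ± 0.21 in IRI, 2.90 ± 0.17 in Hemin and 1.24 ± 0.32 in IRI+Hemin, an interaction of -1.61 (SE 0.22, adjusted p = 0.000281). C1qtnf3, a secreted C1q and TNF related protein, had 1.83 ± 0.09 in IRI and -0.05 ± 0.17 in IRI+Hemin, an interaction of -1.50 (SE 0.28, adjusted p = 0.00269). The spiked-in transcripts, with a median interaction of -1.21, moved in the same direction as these genes and as all others with a lower interaction. The medians of the interferon and cytokine lists below have the same sign. The part of the spiked-in shift in these results was not tested. Mep1b lost its call with normexp (-1.19) and with probes averaged as log2 values (-0.41). C1qtnf3 lost its call without scaling (-1.71).

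Srd5a2 encodes a steroid 5alpha-reductase, which makes dihydrotestosterone. Its levels were -2.58, -3.05, -2.66 and -3.22 in Control, -1.12, -0.96, -0.96 and -0.92 in IRI, -2.79, -2.72, -3.10 and -3.44 in Hemin and -2.94, -2.80, -3.15 and -2.32 in IRI+Hemin. The IRI arrays lay above all others, and the other 3 groups overlapped. Ischemia raised it by 1.89 without hemin (adjusted p = 1.27e-06) and was not called with it (adjusted p = 0.428), an interaction of -1.68 (SE 0.29, adjusted p = 0.00172). Srd5a2 lost its call with normexp (-0.78).

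Elf3, an epithelial transcription factor induced by inflammation, had -0.34, -0.79, -0.34 and -0.37 in Control, 0.89, 1.39, 0.88 and 1.73 in IRI, -0.42, -0.65, -0.25 and -0.64 in Hemin and -0.25, -0.55, -0.46 and -0.20 in IRI+Hemin. Again IRI alone stood above all others. The ischemia effect was 1.68 without hemin and 0.12 with it, an interaction of -1.56 (SE 0.25, adjusted p = 0.00103). Phlda1, a pleckstrin homology protein induced by cell stress, had 0.48 ± 0.20 in Control, 2.45 ± 0.46 in IRI, 0.33 ± 0.06 in Hemin and 0.76 ± 0.41 in IRI+Hemin, an interaction of -1.54 (SE 0.30, adjusted p = 0.00425). Lingo4, a leucine-rich repeat membrane protein, had -1.47 ± 0.70 in IRI and -3.68 ± 0.53 in IRI+Hemin, an interaction of -1.82 (SE 0.47, adjusted p = 0.0227). Best1, the chloride channel bestrophin, differed in that Hemin stood apart, at -2.82 ± 0.07 beside -3.98 ± 0.26 in IRI+Hemin, an interaction of -1.59 (SE 0.31). Phlda1 lost its call with normexp (-1.62) and without scaling (-1.74). Lingo4 lost its call with normexp (-0.59). Best1 lost its call with normexp (-0.66) and in the deposited matrix (-1.29).

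Among genes raised by ischemia in both settings with a lower rise after hemin, the naming rule, which asks that the call hold whichever array is left out, chose Fosl2 and Klf5 among others. Fosl2 encodes an AP-1 subunit of the immediate early response. Its levels were -2.46, -2.66, -2.48 and -2.54 in Control, 0.23, 0.79, 0.62 and 0.51 in IRI, -2.98, -3.14, -2.79 and -2.92 in Hemin and -1.28, -1.09, -1.13 and -1.41 in IRI+Hemin. No group overlapped another, and they ranked from Hemin through Control and IRI+Hemin to IRI. Its ischemia effect was 3.07 without hemin and 1.73 with it, an interaction of -1.34 (SE 0.20, adjusted p = 0.000491). Of 24 immediate early and AP-1 genes tested, Fosl2 was the 1 called (4.17%, beside 1.96% of all genes), and the list median was -0.27.

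Klf5, a zinc finger factor of epithelial growth, had -3.38, -4.12, -4.27 and -3.80 in Control, -0.78, -0.96, -0.70 and -0.15 in IRI, -3.45, -4.07, -3.07 and -3.99 in Hemin and -1.85, -1.78, -1.84 and -1.45 in IRI+Hemin. Its IRI arrays lay above its IRI+Hemin arrays, and Control and Hemin overlapped below both. The interaction was -1.33 (SE 0.34, adjusted p = 0.0214), and 1 of its 2 probes, well above background on 1 array, gave 1.21. Slc7a5, the large neutral amino acid carrier LAT1, had effects of 2.37 without and 1.16 with hemin, an interaction of -1.21 (SE 0.27, adjusted p = 0.0111). Azgp1, zinc-alpha-2-glycoprotein, rose more after hemin, by 2.82 beside 1.61, an interaction of 1.21 (SE 0.30, adjusted p = 0.0181). On the linear scale the sign of Azgp1 turned, to -0.37, with its Hemin level at 0.89 ± 0.43 and its Control level at 2.52 ± 0.27. With array weights Azgp1 was 0.80 and still called. Klf5 lost its call with normexp (-0.54), without scaling (-1.53), in the deposited matrix (-3.43) and with probes averaged as log2 values (-0.09). Slc7a5 and Azgp1 lost their calls with normexp (-0.73 and 0.94 in that order) and without scaling (-1.41 and 1.01).

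In the genes lower with ischemia in both settings, V1re6, a vomeronasal receptor, fell by 2.50 without hemin and by 0.48 with it, an interaction of 2.02 (SE 0.24, adjusted p = 0.000134). Odf3b and Tlx2, a homeobox factor, had 1.37 (SE 0.25) and 1.36 (SE 0.35). Wfdc15a, a whey acidic protein domain gene, fell by 1.67 without hemin and was not called with it, an interaction of 2.17 (SE 0.42). In the opposite pattern, Dbil5, an acyl-CoA binding protein gene of testis, and Frap1, the older symbol of the mTOR kinase gene, were higher with ischemia in untreated mice and lower after hemin. Frap1 had 2.93 ± 0.38 in Control, 3.35 ± 0.15 in IRI, 3.12 ± 0.16 in Hemin and 2.52 ± 0.07 in IRI+Hemin, an interaction of -1.02 (SE 0.21, adjusted p = 0.00634), and Dbil5 had -1.11 (SE 0.22, adjusted p = 0.00464). V1re6, Odf3b and Wfdc15a lost their calls with normexp (0.88, 0.45 and 1.00 in that order). Tlx2 lost its call with normexp (0.50) and with array weights (0.72). Frap1 and Dbil5 lost their calls with normexp (-1.21 and -0.49 in that order) and without scaling (-1.22 and -1.31).

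The interferon response list held 25 genes tested, of which 4 were called lower (16%, beside 1.96% of all genes) and none higher, with 15 lower (60%, beside 8.52% of all genes) and 0 higher (beside 13.8%) at an unadjusted p below 0.05 in limma. All 25 interactions were negative, with a median of -1.24 that lay between -1.44 and -0.77 under 13 alternatives other than leaving out an array. Ifit1, which binds uncapped viral RNA and whose promoter is printed above, had -1.67, -2.15, -2.21 and -1.93 in Control, 1.31, 0.66, -2.93 and -2.22 in IRI, -1.20, -1.34, -1.30 and -1.10 in Hemin and -3.04, -3.15, -3.31 and -3.13 in IRI+Hemin. IRI replicates 1 and 2 were the highest of all arrays and IRI replicates 3 and 4 were below every Control array. The interaction was -3.12 (SE 0.90, adjusted p = 0.0404), and the IRI+Hemin arrays lay below all others. The call of Ifit1 was lost in 14 of the 16 fits that left out an array, with interactions of -3.83 to -2.42, and held without IRI replicate 3 and without IRI replicate 4. Ifit1 lost its call with normexp (-1.95), without scaling (-3.32), in the deposited matrix (-3.00), with no filter on dim genes (-3.12), with 16 arrays fitted (-3.12) and with array weights (-2.32).

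Oasl1, an oligoadenylate synthetase-like regulator of interferon, had -2.10, -2.39, -2.46 and -2.14 in Control, 1.68, 1.83, -0.49 and -0.10 in IRI, -1.97, -1.79, -2.29 and -1.35 in Hemin and -0.77, -1.78, -0.89 and -2.29 in IRI+Hemin. The IRI arrays were above all others, again with replicates 1 and 2 highest, and the interaction was -2.58 (SE 0.68, adjusted p = 0.0251). Ifit2, a relative of Ifit1, had -2.27 (SE 0.59, adjusted p = 0.0252). Oasl1 and Ifit2 each lost their call in 3 of the 16 fits that left out an array, IRI replicate 2 and IRI+Hemin replicate 2 among them. Irf9, the DNA-binding subunit of the interferon-activated complex, had -1.04 (SE 0.30, adjusted p = 0.0435) and is named because it completes the 4 genes called, after its value was seen. Irf9 lost its call in 13 of the 16 fits. Oasl1 lost its call with normexp (-1.83), without scaling (-2.79) and with array weights (-1.77). Ifit2 lost its call with normexp (-0.80), without scaling (-2.47), with probes averaged as log2 values (-1.95) and with array weights (-1.61). Irf9 lost its call with normexp (-0.81), without scaling (-1.24), in the deposited matrix (-0.89), with probes averaged as log2 values (-1.26), with the 75th percentile over detected probes (-0.96) and with no filter on dim genes (-1.04).

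The split of the IRI group held across the list. In 24 of the 25 genes IRI replicates 1 and 2 were both above IRI replicates 3 and 4, an order found in 15.8% of all genes tested. The list's median difference from the Control mean was 1.56 and 1.14 in IRI replicates 1 and 2 and -0.80 and -0.34 in IRI replicates 3 and 4. It was 0.34, 0.42, 0.44 and 0.92 in Hemin and -0.81, -0.41, -1 and -0.28 in IRI+Hemin. The number of list members called lower was 11 without IRI replicate 3 and 8 without IRI replicate 4. It was 1 without IRI replicate 1 and 0 without IRI replicate 2, 0 without IRI+Hemin replicate 2, and 1 to 3 without any other single array. The list median stayed between -1.62 and -0.95 in all of these fits.

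**Figure D4:**
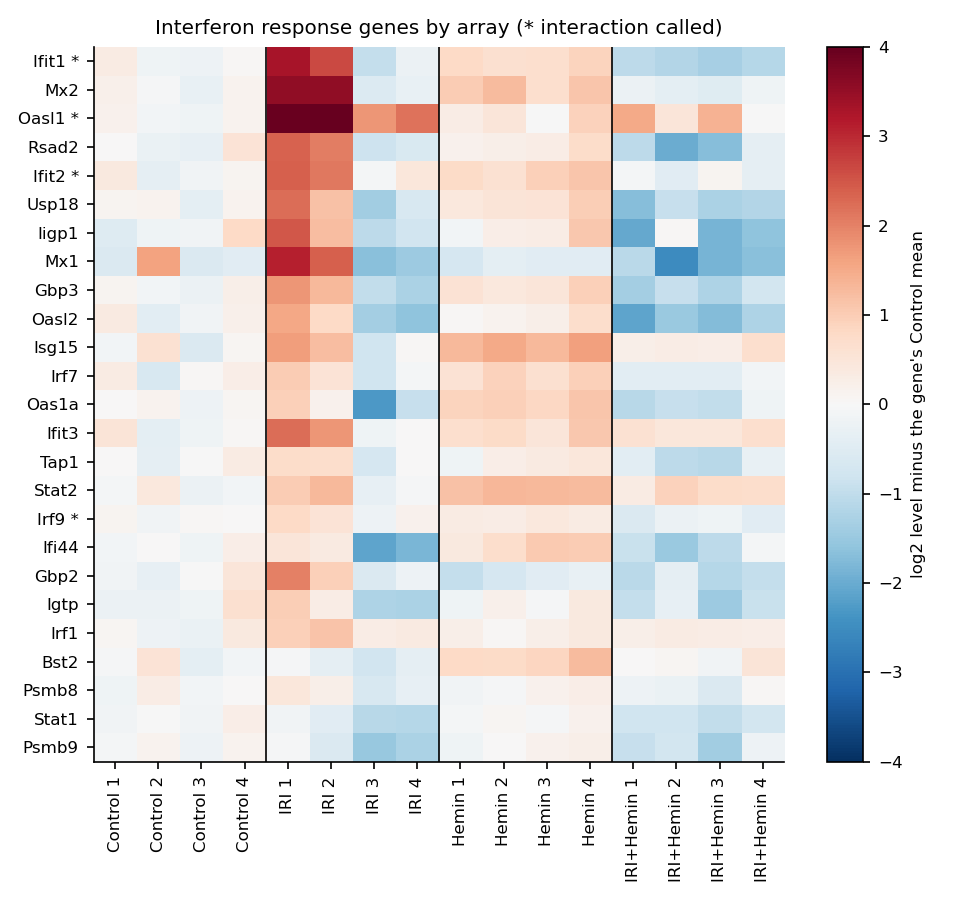
Difference of the level from the gene's Control mean (log2, color) for 25 interferon response genes (rows, ordered by interaction) in 16 arrays (columns), with an asterisk at the 4 genes called. IRI replicates 1 and 2 are red in most rows, IRI replicates 3 and 4 mostly blue, the Hemin arrays mostly pale red and the IRI+Hemin arrays mostly blue.

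Of 19 cytokine and chemokine genes tested, 2 were called lower (10.5%, beside 1.96% of all genes) and 1 higher (5.26%, beside 5.83%), and 15 interactions were negative with a median of -1.31, which was -0.43 under normexp. The median was -1.31 over the 10 well above background on all 16 arrays and -0.805 over 24 with no filter. The remaining members tested could pass the filter through the group in which they were high, so the counts and median describe the genes that passed. The number called lower was 0 without IRI replicate 1, IRI+Hemin replicate 1, IRI+Hemin replicate 3 or Hemin replicate 3, and 1 to 3 without any other array. Ccl2, the chemokine that draws monocytes, had -2.93, -2.61, -3.31 and -2.44 in Control, 2.61, 1.79, 1.74 and 1.91 in IRI, -2.84, -2.67, -1.94 and -2.71 in Hemin and -0.53, 0.79, -0.25 and -0.22 in IRI+Hemin. The IRI arrays lay above the IRI+Hemin arrays, and both above the non-ischemic arrays. Ischemia raised Ccl2 by 4.83 without hemin and by 2.49 with it, an interaction of -2.34 (SE 0.65, adjusted p = 0.0323) that ranged over -2.62 to -2.14 when arrays were left out and lost its call in 7 of the 16 fits. Ccl2 lost its call with normexp (-1.55), without scaling (-2.55) and in the deposited matrix (-2.22).

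Csf1, the growth factor of macrophages, rose by 2.86 without hemin and by 1.79 with it, an interaction of -1.06 (SE 0.30, adjusted p = 0.0359) that lost its call in 9 of the 16 fits that left out an array. Osm, oncostatin M, went the other way with 1.19 (SE 0.30, adjusted p = 0.0194), was dim throughout and was well above background on 1 of 4 IRI arrays. Il6 and Il1b, inflammatory cytokines named outside the rule and after their values were seen, had interactions of -1.31 and -1.76 and were not called (adjusted p = 0.24 and 0.147). Of 17 NF-kappaB genes and 19 tubular injury markers tested, none was called by limma, beside 5.83% of all genes called higher and 1.96% lower, with medians of -0.34 and -0.32. At an unadjusted p below 0.05, 2 of the first (11.8%) and 1 of the second (5.26%) were lower, near the 8.52% of all genes, and none was higher, beside 13.8%. Both lists had been raised by ischemia in each setting, with 14 of 17 and 16 of 19 called higher without hemin and 13 of 17 and 15 of 19 with it, beside 16.1% and 16% of all genes. Csf1 lost its call with normexp (-0.87), without scaling (-1.27), in the deposited matrix (-0.94), with the 75th percentile over detected probes (-0.98) and with no filter on dim genes (-1.06). Osm lost its call with normexp (-0.02), without scaling (0.98) and with probes averaged as log2 values (0.71).

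Of 14 acute phase and fibrinogen genes tested, 3 were called higher (21.4%, beside 5.83% of all genes) and none lower, 13 interactions were positive, and the median was 1.56, which was 0.46 under normexp. It was 1.49 over the 9 genes well above background on all 16 arrays and 1.49 over 15 with no filter on dim genes. Members dim in other groups could pass through the group in which they were high, so the counts describe the genes that passed. The number called higher was 5 without IRI+Hemin replicate 4, 1 without Hemin replicate 4 and 2 or 3 without any other array. Saa1, serum amyloid A1, had -1.49, -1.62, -1.65 and -1.83 in Control, -2.39, -2.31, -2.29 and -2.54 in IRI, -3.09, -2.54, -2.67 and -2.29 in Hemin and -1.92, -1.37, -1.27 and -2.02 in IRI+Hemin. Control and IRI+Hemin overlapped with each other and lay above all IRI and Hemin arrays, which overlapped as well. Ischemia lowered Saa1 by 0.74 without hemin and raised it by 1.00 with it, an interaction of 1.74 (SE 0.24, adjusted p = 0.000353). Its near-identical relative Saa2 had 1.63 and was not called (adjusted p = 0.268), and the probes may not separate them. Saa2, and Fgb, Fgg and Lcn2 that follow, are outside the naming rule and were chosen after their values were seen. Saa1 lost its call with normexp (0.74) and in the deposited matrix (0.95).

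Fga, the fibrinogen alpha chain, had -0.09, -1.32, -0.31 and 0.24 in Control, 0.96, -0.02, -0.08 and -0.14 in IRI, -1.89, -1.61, -1.75 and -1.76 in Hemin and 2.02, 0.65, 1.51 and -0.20 in IRI+Hemin. The Hemin arrays lay below all others, and IRI+Hemin spread from -0.20 to 2.02. The interaction was 2.20 (SE 0.62, adjusted p = 0.0359) and lost its call in 12 of the 16 fits that left out an array, and Fgb and Fgg, the other 2 chains, had 1.66 and 1.49 and were not called (adjusted p = 0.123 and 0.2). Itih4, an inter-alpha-trypsin inhibitor heavy chain, had 2.00 (SE 0.53, adjusted p = 0.0263), with Control arrays from -3.37 to -0.76, and lost its call without IRI+Hemin replicate 4 and without Hemin replicate 4. Lcn2, the injury marker lipocalin 2, was the 1 member with a negative value, at -1.06, and was not called. Fga lost its call without scaling (2.00) and with no filter on dim genes (2.20). Itih4 lost its call with normexp (0.50) and with quantile normalization (1.75).

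**Figure D5:**
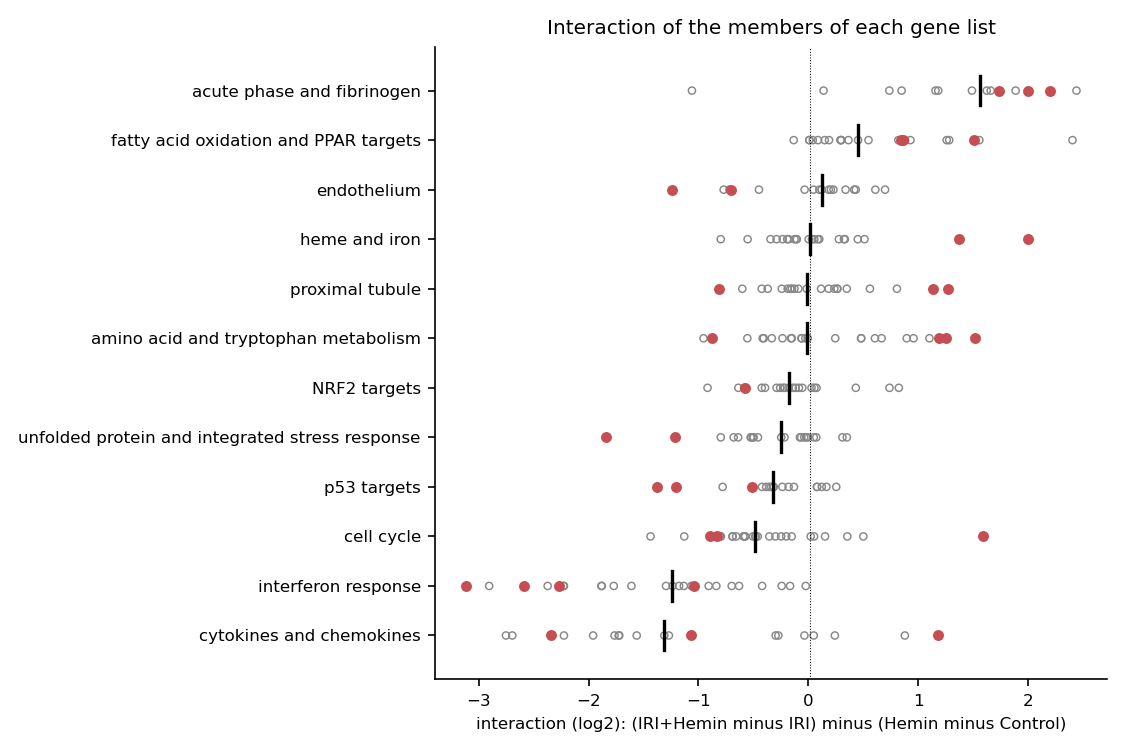
Interaction (log2, horizontal axis) of each tested member of 12 gene lists, with called members filled red, members not called as open circles and the list median as a black bar. The dotted line is the median of all genes tested, 0.01. The medians run from -1.31 for cytokines and chemokines to 1.56 for acute phase and fibrinogen genes.

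Stress pathways had lower interactions in single members. Of 21 genes of the unfolded protein and integrated stress response tested, Atf4 and Trib3 were called lower (9.52%, beside 1.96% of all genes) and the median was -0.25. Neither was called without Hemin replicate 3, and 1 or 2 of the list were without any other array. Atf4, the transcription factor of that response, had 0.69 ± 0.28 in Control, 3.09 ± 0.52 in IRI, 1.11 ± 0.27 in Hemin and 2.30 ± 0.27 in IRI+Hemin, an interaction of -1.21 (SE 0.31, adjusted p = 0.0237). Trib3, a pseudokinase induced by Atf4, rose by 3.7 without hemin and by 1.86 with it, an interaction of -1.84 (SE 0.54, adjusted p = 0.0439) that lost its call in 14 of the 16 fits that left out an array. Bag3, a co-chaperone of Hsp70, had -0.78 (SE 0.16, adjusted p = 0.00566), with -0.83 and -0.05 for its 2 probes. Of 21 NRF2 targets tested 1 was called, Taldo1 of the pentose phosphate pathway (4.76%, beside 1.96% of all genes lower), at -0.58 (SE 0.15, adjusted p = 0.0255), a call lost without Control replicate 3, IRI replicate 2 or IRI replicate 3. Atf4 lost its call with normexp (-1.09), without scaling (-1.42) and in the deposited matrix (-1.09). Trib3 lost its call with normexp (-1.10), without scaling (-2.04), in the deposited matrix (-1.72), with probes averaged as log2 values (-1.46), with the 75th percentile over detected probes (-1.76) and with no filter on dim genes (-1.84). Bag3 lost its call with normexp (-0.73), without scaling (-0.98) and with probes averaged as log2 values (-0.44). Taldo1 lost its call with normexp (-0.43) and without scaling (-0.78).

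Of 18 p53 targets tested, 3 were called lower (16.7%, beside 1.96% of all genes) and none higher, and the median was -0.32. The number called lower was 0 without IRI replicate 2, 1 without Control replicate 1, IRI replicate 3 or Hemin replicate 1, and 2 or 3 without any other array. Mdm2, which marks p53 for degradation, rose by 1.32 without hemin and by 0.81 with it, an interaction of -0.51 (SE 0.15, adjusted p = 0.0423). Bbc3, the death protein PUMA, had 1.94 and 0.74, an interaction of -1.20 (SE 0.31, adjusted p = 0.0252). Gadd45a, a growth arrest gene, had 2.58 and 1.20, an interaction of -1.38 (SE 0.37, adjusted p = 0.029). The call was lost in 12 of the 16 fits that left out an array for Mdm2, in 2 for Bbc3 and in 7 for Gadd45a. The list's ischemia effect had a median of 0.81 without and 0.54 with hemin. Mdm2 lost its call with normexp (-0.28), without scaling (-0.72), in the deposited matrix (-0.39), with probes averaged as log2 values (-0.42), with the 75th percentile over detected probes (-0.43), with no filter on dim genes (-0.51) and with 16 arrays fitted (-0.51). Bbc3 lost its call with normexp (-0.69) and without scaling (-1.40). Gadd45a lost its call with normexp (-1.42) and in the deposited matrix (-1.19).

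Of 27 cell cycle genes tested, Mcm3 and Cdt1, which license replication origins, were called lower, at -0.89 (SE 0.23, adjusted p = 0.0212) and -0.83 (SE 0.22, adjusted p = 0.0293), and Bub1, a spindle checkpoint kinase, was called higher, at 1.59 (SE 0.40, adjusted p = 0.0208) and at 1.03 with array weights. Cdt1 was at 0.55 ± 0.05 in Control and at 1.68 ± 0.28, 1.58 ± 0.27 and 1.87 ± 0.27 in IRI, Hemin and IRI+Hemin. Leaving out an array ended the call of Cdt1 in 5 of 16 fits. Mcm3 was highest in Hemin, at -0.71 ± 0.20, and at -1.71 ± 0.24 in IRI+Hemin. The list median was -0.48, and 7.41% of the list was called lower and 3.7% higher, beside 1.96% and 5.83% of all genes. The list had 1 member called lower without IRI replicate 2, IRI replicate 3, IRI+Hemin replicate 1, IRI+Hemin replicate 4 or Hemin replicate 4. Mcm3 lost its call with normexp (-0.79), without scaling (-1.09), in the deposited matrix (-0.04) and with probes averaged as log2 values (-0.74). Cdt1 lost its call with normexp (-0.49), without scaling (-1.03) and in the deposited matrix (-0.71). Bub1 lost its call with normexp (0.68) and with probes averaged as log2 values (0.54).

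Among 24 genes of amino acid and tryptophan metabolism tested, Ddc, Hpd and Kynu were called higher (12.5%, beside 5.83% of all genes) and Odc1 lower (4.17%, beside 1.96%). Ddc, the aromatic amino acid decarboxylase that makes dopamine in the proximal tubule, had 2.30, 2.64, 2.04 and 3.14 in Control, 1.10, 1.15, 1.30 and 1.36 in IRI, 2.68, 2.88, 2.97 and 2.91 in Hemin and 3.44, 2.93, 3.05 and 2.91 in IRI+Hemin. The IRI arrays lay below all 12 others. Ischemia lowered Ddc by 1.30 without hemin (adjusted p = 1.76e-05) and was not called with it (adjusted p = 0.343), an interaction of 1.52 (SE 0.26, adjusted p = 0.00147). Hpd, of tyrosine breakdown, had 1.19 (SE 0.33, adjusted p = 0.0326), and Kynu, kynureninase, had 1.25 (SE 0.35, adjusted p = 0.036). Odc1, the ornithine decarboxylase of polyamine synthesis, had -0.88 (SE 0.26, adjusted p = 0.0455). Leaving out an array ended the call in 12 of 16 fits for Odc1, in 9 each for Hpd and Kynu, and in none for Ddc. Over these fits 1 to 4 of the list were called higher, as a further member was called in some of them. Ddc lost its call without scaling (1.32). Hpd lost its call without scaling (0.99) and with no filter on dim genes (1.19). Kynu lost its call with normexp (-0.06), without scaling (1.05), with probes averaged as log2 values (0.50), with quantile normalization (1.00) and with no filter on dim genes (1.25). Odc1 lost its call with normexp (-0.91), without scaling (-1.08), in the deposited matrix (-1.14), with the brightest probe (-0.83), with the 75th percentile over detected probes (-0.80), with no filter on dim genes (-0.88) and with 16 arrays fitted (-0.88).

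Of 21 proximal tubule markers tested, 2 were called higher (9.52%, beside 5.83% of all genes) and 1 lower (4.76%, beside 1.96%), with a median of -0.01. Slc13a1, the sodium-sulfate cotransporter, had 2.27, 2.65, 2.45 and 2.40 in Control, 2.04, 2.06, 1.99 and 1.48 in IRI, 2.74, 2.66, 3.31 and 2.92 in Hemin and 3.74, 3.44, 3.5 and 3.28 in IRI+Hemin. The IRI arrays lay below and the IRI+Hemin arrays mostly above those of the other groups. The interaction was 1.13 (SE 0.23, adjusted p = 0.00618). Slc5a12, a sodium-lactate cotransporter, fell by 1.67 without hemin and was not called with it, an interaction of 1.27 (SE 0.32, adjusted p = 0.0188). Slc13a3, the dicarboxylate carrier, went the other way at -0.81 (SE 0.23, adjusted p = 0.0401), from 4.10 ± 0.13 in Hemin to 3.16 ± 0.29 in IRI+Hemin, and lost its call in 10 of the 16 fits that left out an array. Slc13a1 lost its call without scaling (0.93) and with probes averaged as log2 values (1.11). Slc5a12 lost its call with normexp (1.15), without scaling (1.07), in the deposited matrix (1.40) and with probes averaged as log2 values (0.67). Slc13a3 lost its call with normexp (-0.71), without scaling (-1.01), in the deposited matrix (-0.69), with quantile normalization (-0.70), with the 75th percentile over detected probes (-0.73) and with no filter on dim genes (-0.81).

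Of 17 endothelial markers tested, Sox7, an endothelial transcription factor, and Esam, a junction protein, were called lower, at -1.24 (SE 0.33, adjusted p = 0.0271) and -0.70 (SE 0.20, adjusted p = 0.0345), which is 11.8% beside 1.96% of all genes, while the list median was 0.12, and -0.08 without scaling. Leaving out an array ended the call in 6 of 16 fits for Sox7 and in 10 for Esam, and neither was called without IRI+Hemin replicate 1, Hemin replicate 1 or Hemin replicate 3. Summed endothelial marker levels, on a linear scale, ran from 36.2 to 44.8 in Control, from 44.3 to 50.2 in IRI, from 34.7 to 49.5 in Hemin and from 48.8 to 56.4 in IRI+Hemin. None was called by limma among 18 leukocyte, 10 podocyte, 21 distal nephron, 22 hypoxia, 16 circadian clock, 11 glucocorticoid, 30 actin cytoskeleton, 73 respiratory chain and 38 proteasome genes tested, beside 5.83% of all genes called higher and 1.96% lower. At an unadjusted p below 0.05 in limma, where 13.8% of all genes were higher and 8.52% lower, the counts were 3 of 10 podocyte, 3 of 11 glucocorticoid, 2 of 16 clock and 1 of 18 leukocyte genes higher. Lower were 5 of 22 hypoxia, 5 of 30 actin cytoskeleton, 3 of 21 distal nephron, 2 of 16 clock, 3 of 38 proteasome and 3 of 73 respiratory chain genes, and the other counts of these lists were 0. Of 49 translation factors 3 were called higher (6.12%, near the 5.83% of all genes) and 2 lower (4.08%, beside 1.96%). Eif4ebp2, a repressor of cap-dependent translation, was at 0.32 ± 0.35 in IRI and 2.52 ± 0.16 in IRI+Hemin, an interaction of 1.66 (SE 0.28, adjusted p = 0.00126). Sox7 lost its call with normexp (-0.48), without scaling (-1.44) and in the deposited matrix (-0.06). Esam lost its call with normexp (-0.53), without scaling (-0.90), in the deposited matrix (-0.58), with the 75th percentile over detected probes (-0.62) and with no filter on dim genes (-0.70). Eif4ebp2 lost its call without scaling (1.46).

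Olfactory receptor genes, known for odor sensing in the nose, were called higher in 40 of 332 tested (12%, beside 5.83%) and lower in 25 (7.53%, beside 1.96%). The 332 are those of 909 on the array that passed the filter on dim genes, and 74 of them were well above background on all 16 arrays. The others could pass through the group in which they were high, so these counts and the median describe the genes that passed and support nothing further. The median interaction of 0.34 was 0.04 over all 909 with no filter, where 4.07% were called higher and 3.3% lower beside 3.22% and 0.956% of all genes. Under normexp the median was -0.08 and 2 were called higher (0.602%, near the 0.614% of all genes) and none lower (beside 0.152%). Olfr282 had -3.20 ± 0.18 in Control, -3.01 ± 0.15 in IRI, -2.86 ± 0.13 in Hemin and -4.54 ± 0.31 in IRI+Hemin, and Olfr195 had -2.46 ± 0.45, -2.16 ± 0.12, -2.01 ± 0.10 and -3.44 ± 0.51 in the same order. Their interactions were -1.86 (SE 0.23, adjusted p = 0.000208) and -1.73 (SE 0.31, adjusted p = 0.00251). Probes of this family may read more than 1 member. Olfr282 and Olfr195 lost their calls with normexp (-0.55 and -0.73 in that order).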

How the data were processed

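Kidney RNA, labeled with Cy3, was hybridized to whole-genome mouse arrays, and the deposited scanner files hold spot intensity from Agilent Feature Extraction 9.5.3.1, as per the file headers. The authors' software had subtracted background from the processed intensity and detrended it within each array, with no scaling between arrays. The authors also deposited a log2 matrix, used as an alternative. Here 43379 non-control spots of 41174 probes were averaged into 27827 gene names, divided by the array's 75th percentile and taken to log2. Genes entered the test if some group had at least 3 of 4 arrays well above background and no more than 1 of the 16 values was missing. A gene that was dim in other groups could thus enter through the group in which it was high. The fit took all 20 arrays, in 5 groups (limma 3.58.1, R 4.3.3), and the interaction was a contrast with empirical Bayes moderation and Benjamini-Hochberg adjustment over 19060 genes, called below 0.05. The study's own test has no interaction term, so limma was used in its place. Nothing in the labels says more of the 4 samples of a group than that each came from a separate sample, so the p-values measure the spread between those samples. The number of arrays limits the precision. For a single comparison of groups, an exact permutation test of 4 against 4 arrays cannot go below p = 0.029, which is not a bound for the interaction. The replicate numbers did not pair the arrays.

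Named genes were Hmox1, the 12 highest and 12 lowest interactions among genes with a RefSeq mRNA accession that were well above background on all 16 arrays and called whichever array was left out, up to 3 for each combination of ischemia calls with 20 or more genes, and up to 3 called members a direction of each list. Genes outside the rule are named as such. Members and gene lists were chosen with earlier results of these data known. The scripts were tested on simulated data. Alternatives changed background correction, scaling, probe summary, filters, weights, blocks, the arrays included and the deposited matrix. The normexp alternative also added 50 signal units to every value before the log2 step. Promoter sequences are from RefSeq.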

Additional observations from a re-analysis of the deposited data

Results flagged for a closer look

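In the 16 arrays the 72 genes followed through the alternatives form 288 groups of 4 values. In 25 of these groups the highest or lowest array stood apart from the other 3 by more than Dixon's critical value, where chance gives about 1 in 20. The levels that follow are log2 over the array's 75th percentile. Control replicate 2 stood apart in Ddx25 at -1.80, Rtbdn at -0.84, Elf3 at -0.79, C1qtnf3 at 0.67 and Slc5a12 at 1.74, and Control replicate 3 in Cp at -0.41. IRI replicate 4 stood apart in Rtbdn at -3.69, Slco4c1 at -2.31 and Slc13a1 at 1.48. IRI replicate 2 did so in Ppargc1a at 0.27 and Ehhadh at 5.21, IRI replicate 1 in Fga at 0.96 and IRI replicate 3 in Sox7 at -1.56. Hemin replicate 4 stood apart in Fgf18 at -3.16, Lingo4 at -4.38, Olfr195 at -2.15 and Hpd at 1.52, Hemin replicate 1 in Myo5a at 2.11 and Hemin replicate 2 in Osm at -5.41. IRI+Hemin replicate 4 stood apart in Ddx25 at -2.33, Olfr195 at -2.68, Myo5a at 0.51 and Atf4 at 1.89, IRI+Hemin replicate 1 in Trib3 at 0.11 and IRI+Hemin replicate 2 in Taldo1 at 6.34.

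The interaction is itself a test of whether the ischemia effect differs between mice with and without hemin, and it was called in 1112 genes as higher and in 373 as lower. Some genes were named for opposite ischemia calls, and the interaction is the difference of the 2 ischemia effects. The count that follows is therefore a description of the genes chosen and not a further result. In 15 of the named genes the ischemia effect was called in opposite directions in the 2 settings, beside 200 of the 19060 genes tested. It went from lower without hemin to higher with it in F7 (interaction 3.00), Rtbdn (2.77), S100a3 (2.75), A430110N23Rik (2.71), Olfr1359 (2.42), Cyp2d34 (2.32), Alas1 (2.00), Cyp17a1 (1.98), Saa1 (1.74), Eif4ebp2 (1.66), Ppargc1a (1.51) and Slc13a1 (1.13). It went from higher to lower in Dbil5 (-1.11), Frap1 (-1.02) and Cyp2j9 (-1.02).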

How the results depend on the processing

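Among the named genes the direction of the interaction turned in Azgp1 on the linear scale (-0.37), and with normexp in Osm (-0.0202, adjusted p = 0.994) and Kynu (-0.0584, adjusted p = 0.984, both by limma). Normexp gave 117 higher and 29 lower interactions, 3065 genes changed in IRI vs Control, 4308 in IRI+Hemin vs Hemin and 3603 in Hemin vs Control. Without scaling between arrays they were 321, 84, 5559 in IRI vs Control and 4994 in IRI+Hemin vs Hemin. The deposited log2 matrix gave 106 lower interactions and 4467 genes in Hemin vs Control. Array weights gave 1875 and 1881 interactions and 10958 genes in Hemin vs Control. A 2-fold minimum left 161 lower interactions and 3890, 2753, 1563 and 2426 genes in IRI vs Control, IRI+Hemin vs Hemin, Hemin vs Control and IRI+Hemin vs IRI. The cause of these shifts was not tested. The median interaction over all genes was 0.01, -0.09 with normexp and -0.19 without scaling, and the share of calls that were higher was 74.9%, 64.6% with quantile normalization, 88.9% with the deposited matrix and 49.9% with array weights. Leaving out 1 array gave 760 to 1098 higher and 227 to 575 lower interactions, 8625 to 9727 genes in IRI vs Control, 7193 to 8832 in IRI+Hemin vs Hemin, 5086 to 7696 in Hemin vs Control and 7145 to 8466 in IRI+Hemin vs IRI. Of 24 pairs of arrays with the same replicate number in 2 groups, 4 correlated over 0.1 in their deviations from the group means (-0.23 to 0.18), so the numbers do not pair the samples. With the replicate block Irf9, Csf1, Ehhadh, Trib3, Mdm2 and Slc13a3 missed the threshold, and there were 995 higher and 283 lower interactions, and 9048, 7926, 6310 and 7743 genes in the 4 comparisons in the order given for the 2-fold minimum. Arrays give signal over background rather than depth, and 14609 of 19060 genes were well above background on all 16 arrays.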
